A study of Saccharomyces cerevisiae with 14 samples.

Results

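The genes described here encode the enzymes of upper glycolysis and those that make and remove fructose 2,6-bisphosphate in the budding yeast Saccharomyces cerevisiae. They were chosen by systematic name and number 8 of the 6664 genes in the table of expression values, and all 8 passed the filter on low values that left 6267 genes for testing. The upper glycolysis genes are PGI1 (YBR196C), PFK1 (YGR240C), PFK2 (YMR205C), FBA1 (YKL060C) and TPI1 (YDR050C). The fructose 2,6-bisphosphate genes are PFK26 (YIL107C), PFK27 (YOL136C) and FBP26 (YJL155C).

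Messenger RNA was measured in 14 libraries, 1 per sample, to ask what loss of FPT1 does to transcript levels in glucose and after a move to ethanol. The 4 groups were fpt1::KanMX deletion cells after 2 h in ethanol at 30 °C (n = 4), wild-type cells after the same treatment (n = 3), deletion cells growing in the rich glucose medium YEPD (n = 4) and wild-type cells in YEPD (n = 3). Every strain was MATa and carried his3Δ1, leu2Δ0, met15Δ0 and ura3Δ0. The wild type was BY4741, a standard laboratory strain, and in the deletion a KanMX drug-resistance cassette takes the place of FPT1, whose product is known to sit at tRNA genes and other targets of RNA polymerase III. The labels name the deletion strain NKI5633 for replicates 1 to 3 and NKI5620 for replicate 4. They do not say whether each replicate was grown as its own culture, and the p-values cover only the variation among these samples, some of which may be technical.

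FPT1 reached at most 0.412 FPKM in the 8 deletion libraries, against 51.9 to 158 FPKM in the 6 wild-type libraries. LEU2, URA3 and MET17 (the gene of met15Δ0) were listed at 0 in all 14 libraries. All 4 markers of MATa cells (STE2, MFA1, MFA2 and BAR1) read at least 58.3 FPKM in every library. Of 4 MATα markers, STE3, MF(ALPHA)1 and MF(ALPHA)2 read at most 12.4 FPKM and SAG1 read 21.0 to 27.9 FPKM. The move to ethanol showed in ADH2, which encodes the ethanol-oxidising alcohol dehydrogenase and lay between 271 and 803 FPKM in the 7 ethanol libraries, against 2.02 to 4.27 FPKM in the 7 glucose libraries. FPKM are read numbers scaled to gene length and to the mapped total of the library, so they can be compared between genes. Depth is not stated, and a rough estimate was 6190000 to 12790000 reads per library.

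Pgi1 turns glucose 6-phosphate into fructose 6-phosphate, phosphofructokinase adds a second phosphate, and aldolase (Fba1) splits the product into triose phosphates that Tpi1 interconverts. Phosphofructokinase is the step that commits the sugar to glycolysis, and it is built from the α subunit Pfk1 and the β subunit Pfk2. Fructose 2,6-bisphosphate is no intermediate but a signal: it activates phosphofructokinase and inhibits fructose-1,6-bisphosphatase (Fbp1), the enzyme of gluconeogenesis that runs the step in reverse. The 6-phosphofructo-2-kinases Pfk26 and Pfk27 make it, and the fructose-2,6-bisphosphatase Fbp26 removes it.

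All 8 genes lie on the minus strand of their chromosomes, have 1 coding exon and overlap no other annotated gene in the RefSeq annotation of the R64 assembly. None of the 65-base windows of their coding sequences occurs elsewhere in the genome, so reads of that length would not be shared with a copy. PFK26 lies at chrIX:163278-165761, PFK27 at chrXV:67561-68754 and FBP26 at chrX:129285-130643. PFK1 lies at chrVII:970771-973734, PFK2 at chrXIII:671887-674766, PGI1 at chrII:612236-613900, FBA1 at chrXI:326408-327487 and TPI1 at chrIV:555726-556472.

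Upstream sequence is shown for the 3 genes that shifted most between media, and for PFK1 as an enzyme gene beside them, because the short words that regulators of sugar metabolism are known to bind can be read there. The words searched on both strands were CTTCC (known for Gcr1, an activator of glycolytic genes), ACCCANACA (Rap1, its partner), CACGTG (the E-box bound by Tye7 and other factors), GTGGGG and its variants with GC, CC or CT in front of GGGG (Mig1, the glucose repressor), CCAAT (the Hap complex of respiratory genes) and AGGGG (Msn2 and Msn4 of the stress response). Capitals mark every match, adjoining matches run together, and each sequence is on the gene's own strand in RefSeq R64. The PFK26 stretch (chrIX:166062-166161, minus strand, 400 to 301 bases before the start codon), the PFK27 stretch (chrXV:69025-69324, minus strand, 570 to 271 bases before), the FBP26 stretch (chrX:130864-131043, minus strand, 400 to 221 bases before) and the PFK1 stretch (chrVII:974005-974104, minus strand, 370 to 271 bases before) read:
PFK26: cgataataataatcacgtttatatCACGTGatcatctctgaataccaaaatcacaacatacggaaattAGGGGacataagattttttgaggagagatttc
PFK27: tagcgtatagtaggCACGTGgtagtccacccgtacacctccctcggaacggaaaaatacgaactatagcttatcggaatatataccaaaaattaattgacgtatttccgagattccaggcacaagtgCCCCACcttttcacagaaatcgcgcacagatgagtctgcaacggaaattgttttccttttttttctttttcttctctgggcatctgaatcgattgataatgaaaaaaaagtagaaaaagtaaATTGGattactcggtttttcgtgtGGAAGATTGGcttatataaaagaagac
FBP26: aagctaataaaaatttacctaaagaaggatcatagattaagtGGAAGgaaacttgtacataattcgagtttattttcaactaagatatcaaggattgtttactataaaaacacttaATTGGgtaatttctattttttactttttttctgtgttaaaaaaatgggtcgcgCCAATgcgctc
PFK1: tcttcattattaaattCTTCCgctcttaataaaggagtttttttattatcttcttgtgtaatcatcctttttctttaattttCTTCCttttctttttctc

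Over the 500 bases from 600 to 101 before the start codon, CACGTG stood upstream of PFK26 and PFK27 and of no other member, and 6.68% of 5999 such windows of coding genes held it. A Mig1 word stood upstream of PFK27 alone among the 8, against 25.7% of all windows. CTTCC was upstream of 7 of the 8 (all but FBA1) and CCAAT of 5, but these words were in 66.8% and 64.5% of all windows. AGGGG stood upstream of PFK26 and TPI1, against 35.2% of windows, and the Rap1 word upstream of FBA1, against 3.37%. A match is a string of letters in this window and was not tested as a binding site.

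The 2 sets of genes sit at very different levels. FBA1 was the most abundant member in every group, followed by TPI1, PGI1, PFK2 and PFK1, and in this stretch of the order no 2 neighbours overlapped between libraries of a group. FBA1 averaged 9264 ± 507 FPKM in deletion cells in ethanol, 9627 ± 980.0 FPKM in wild type in ethanol, 10977 ± 703 FPKM in deletion cells in glucose and 11706 ± 250.4 FPKM in wild type in glucose (SD, n = 4, 3, 4 and 3), and ranked between 11th and 27th among all genes of a library. The fructose 2,6-bisphosphate genes never exceeded 205 FPKM. In glucose their order was PFK27, FBP26, PFK26 in both strains, with no overlap between neighbours. In ethanol FBP26 came first in both strains, and PFK26 and PFK27 overlapped. Codon choice splits the same way: the codon adaptation index, computed against 132 ribosomal protein genes, was 0.545 to 0.884 for the 5 enzymes and 0.200 to 0.241 for PFK26, PFK27 and FBP26, against a median of 0.198 over 5999 coding genes.

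**Figure D1:**
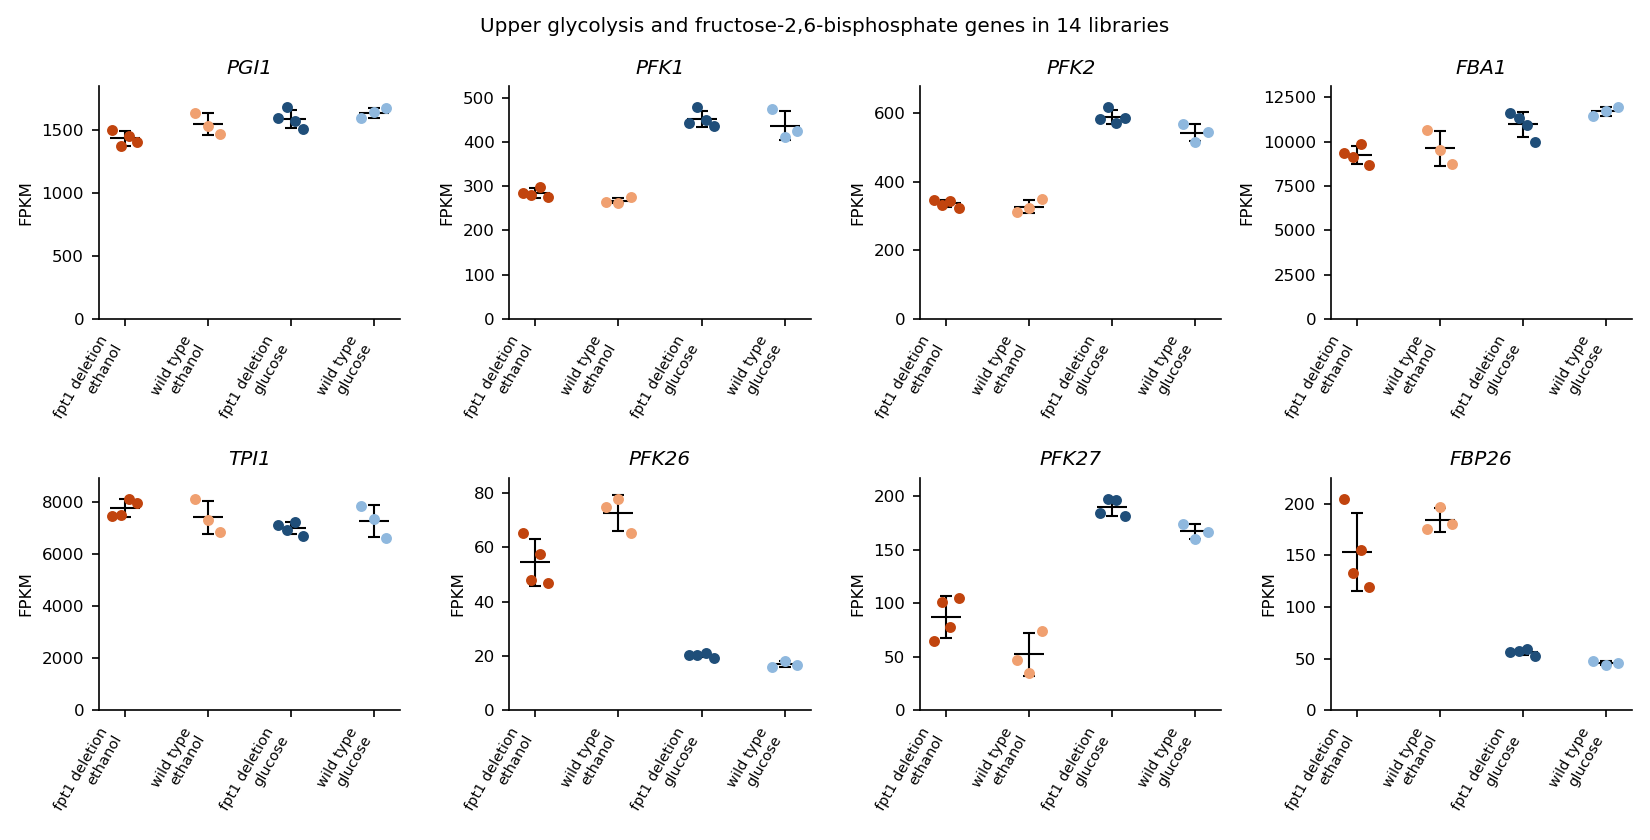
FPKM (linear axis from 0) of each of the 8 genes in 14 libraries, by group; each point is a library, the horizontal bar the group mean and the whiskers the SD. PFK26 and FBP26 stand higher in ethanol and PFK27, PFK1 and PFK2 lower in both strains, while PGI1 and TPI1 lie within a narrow band, such as 1367 to 1677 FPKM for PGI1.

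The move to ethanol split the enzymes of fructose 2,6-bisphosphate. Transcripts of PFK26 and FBP26 rose, while those of the other 2-kinase gene, PFK27, fell, in deletion and wild-type cells alike. Both phosphofructokinase subunit genes fell together, and FBA1 fell slightly in the values as deposited. Of the 8 genes, 2 rose and 5 fell in the deletion, and 2 rose and 4 fell in wild type (limma on log2(FPKM + 1), adjusted p under 0.05). These counts need to be read against a transcriptome in which 46.9% of tested genes were called higher and 27.7% lower in the deletion, and 50.5% higher and 24.8% lower in wild type (74.5% and 75.3% in either direction). The median log2 change over the 8 was -0.20 in the deletion and -0.19 in wild type, while the median over all tested genes was 0.19 in the deletion and 0.31 in wild type. With the libraries shifted to a common median, the split over all genes became 2295 higher and 2421 lower in the deletion (2939 and 1733 as deposited) and 2343 higher and 2362 lower in wild type (3163 and 1555 as deposited).

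PFK26 encodes the 2-kinase that is known to be activated by protein kinase A. In deletion cells it read 65.2, 48.0, 57.6 and 46.8 FPKM in ethanol, against 20.5, 20.3, 20.9 and 19.4 FPKM in glucose. In wild type it read 75.0, 77.9 and 65.2 FPKM in ethanol, against 15.9, 18.2 and 16.7 FPKM in glucose. Every ethanol library stood above every glucose library, as it did for 43.7% of all tested genes in the deletion and 51.4% in wild type. PFK26 rose by 1.37 ± 0.10 on the log2 scale in the deletion (SE, adjusted p = 2.3e-08) and by 2.04 ± 0.11 in wild type (adjusted p = 1.8e-09). It ranked 2902nd to 3803rd among the genes of an ethanol library and 4833rd to 5029th in a glucose library.

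PFK27 encodes the second 2-kinase, a gene known to be induced by glucose. In deletion cells it read 64.3, 102, 77.4 and 105 FPKM in ethanol, against 184, 198, 196 and 181 FPKM in glucose. In wild type it read 47.2, 35.2 and 74.1 FPKM in ethanol, against 174, 160.3 and 167 FPKM in glucose. The media did not overlap, with ethanol below glucose as for 25.7% of all tested genes in the deletion and 25.9% in wild type. The ethanol libraries differed among themselves, with a coefficient of variation of 22.3% in the deletion, next to 24.6% for FBP26, and of 38.1% in wild type. PFK27 fell by 1.14 ± 0.19 on the log2 scale in the deletion (adjusted p = 7.9e-05) and by 1.72 ± 0.22 in wild type (adjusted p = 5.4e-06).

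FBP26 encodes the phosphatase that removes fructose 2,6-bisphosphate. In deletion cells it read 205, 133, 155 and 119 FPKM in ethanol, against 56.8, 57.4, 59.6 and 52.6 FPKM in glucose. In wild type it read 175, 197 and 180.1 FPKM in ethanol, against 48.1, 44.0 and 46.0 FPKM in glucose. The media were again apart in both strains, with ethanol above glucose as for 43.7% of all tested genes in the deletion and 51.4% in wild type. FBP26 rose by 1.39 ± 0.12 on the log2 scale in the deletion (adjusted p = 2.1e-07) and by 1.98 ± 0.14 in wild type (adjusted p = 2.2e-08).

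PFK1, the α subunit of phosphofructokinase, read 285, 279, 299 and 275 FPKM in deletion cells in ethanol, against 443, 478, 451 and 436 FPKM in glucose. In wild type it read 265, 263 and 274 FPKM in ethanol, against 474, 412 and 424 FPKM in glucose. PFK1 fell by 0.66 ± 0.05 on the log2 scale in the deletion (adjusted p = 8.6e-08) and by 0.70 ± 0.06 in wild type (adjusted p = 1.7e-07). PFK2, the β subunit, moved with it. It read 345, 332, 343 and 324 FPKM in deletion cells in ethanol, against 581, 616, 571 and 583 FPKM in glucose. In wild type PFK2 read 311, 323 and 348 FPKM in ethanol, against 567, 516 and 543 FPKM in glucose. PFK2 fell by 0.81 ± 0.05 in the deletion (adjusted p = 8.4e-09) and by 0.73 ± 0.06 in wild type (adjusted p = 7.4e-08). For both subunits each ethanol library was below each glucose library of its strain, as for 25.7% of all tested genes in the deletion and 25.9% in wild type.

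The other 3 enzymes of upper glycolysis moved little in the values as deposited. FBA1, the aldolase gene, fell by 0.24 ± 0.09 on the log2 scale in the deletion (adjusted p = 0.026) and by 0.29 ± 0.11 in wild type (adjusted p = 0.0235), and both calls were lost under quantile normalization, where the change was -0.12 in the deletion and 0.0012 in wild type. PGI1, the isomerase gene, averaged 1430 ± 57.2 FPKM in deletion cells in ethanol, against 1585 ± 72.2 FPKM in glucose, and fell by 0.15 ± 0.06 (adjusted p = 0.0338). Leaving out 1 of 5 libraries ended that call: glucose replicate 1, 2 or 3, or ethanol replicate 2 or 4, with adjusted p up to 0.0969. Under quantile normalization the PGI1 change in the deletion was larger, at -0.49. In wild type PGI1 averaged 1542 ± 85.4 FPKM in ethanol, against 1633 ± 40.3 FPKM in glucose, a change of -0.08 (adjusted p = 0.278).

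The FBA1 calls depended on the scaling in both directions and on single libraries. With a common median the FBA1 change was larger, at -0.46 in the deletion and -0.61 in wild type. In the deletion the call ended without glucose replicate 1, 2 or 3 or ethanol replicate 2 or 4 (adjusted p 0.0507 to 0.0763). In wild type it ended without glucose replicate 2 or 3 or ethanol replicate 2 or 3 (adjusted p 0.0551 to 0.0892). TPI1, which encodes triose phosphate isomerase, averaged 7758 ± 336 FPKM in deletion cells in ethanol, against 6992 ± 240.4 FPKM in glucose, and 7403 ± 645 FPKM in wild type in ethanol, against 7267 ± 613 FPKM in glucose. Its change was 0.15 in the deletion (adjusted p = 0.123) and 0.03 in wild type (adjusted p = 0.815). TPI1 has no direction that holds across scalings: in wild type it was called lower with a common median (-0.29) and higher under quantile normalization (0.38).

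**Figure D2:**
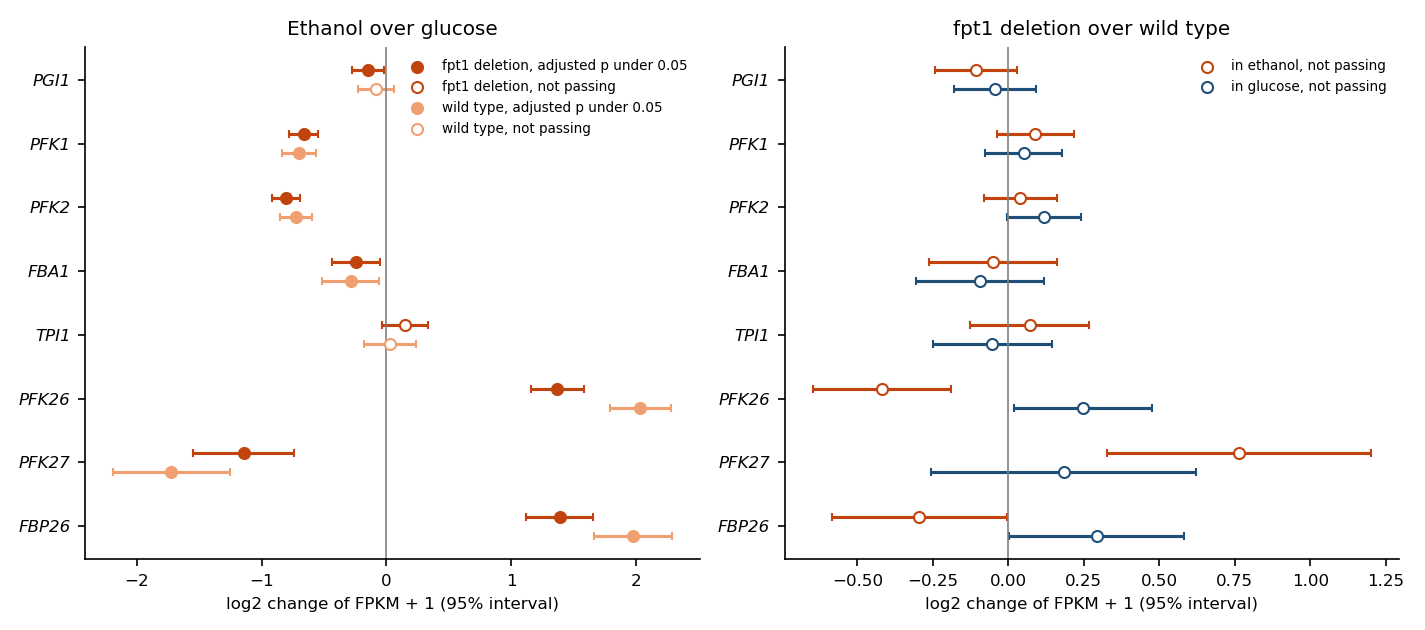
Change of each gene on the log2(FPKM + 1) scale with its 95% interval from limma, for ethanol over glucose in deletion and wild type (left) and for deletion over wild type in ethanol and glucose (right); filled points passed an adjusted p of 0.05 and open points did not. On the left PFK26 and FBP26 lie between 1.37 and 2.04 and PFK27 at -1.14 and -1.72, and on the right no point passed.

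Ratios within a library do not depend on how libraries are scaled against each other. PFK27 over PFK26 was 0.986, 2.11, 1.34 and 2.24 in deletion cells in ethanol, against 9.01, 9.72, 9.37 and 9.35 in glucose. In wild type it was 0.630, 0.453 and 1.14 in ethanol, against 10.9, 8.80 and 9.98 in glucose. Both 2-kinase genes together over FBP26 averaged 0.975 ± 0.282 in deletion cells in ethanol, against 3.71 ± 0.104 in glucose, and 0.682 ± 0.10 in wild type in ethanol, against 4.00 ± 0.0569 in glucose. In single libraries the sum of the 2-kinase transcripts was 0.575 to 1.27 times that of the phosphatase in ethanol and 3.6 to 4.06 times in glucose. These are ratios of transcripts and say nothing of enzyme activity.

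The ratio of FBP1 to the sum of PFK1 and PFK2 sets the gene of the gluconeogenic reaction against those of the glycolytic one. It averaged 0.332 ± 0.137 in deletion cells in ethanol, against 0.00256 ± 0.000537 in glucose, and 0.410 ± 0.105 in wild type in ethanol, against 0.00175 ± 0.000493 in glucose. With the medium permuted within each strain, the change was -3.20 log2 units for PFK27 over PFK26, -2.27 for the 2-kinases over FBP26 and 7.41 for FBP1 over the phosphofructokinase genes. Each had an exact two-sided permutation p of 0.00143, the smallest that 1400 regroupings allow, and an adjusted p of 0.0114 over 24 tests.

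PFK1 over PFK2 stayed in a narrow range. It averaged 0.847 ± 0.019 in deletion cells in ethanol, against 0.768 ± 0.0182 in glucose, and 0.819 ± 0.0326 in wild type in ethanol, against 0.805 ± 0.0281 in glucose. The 4 ethanol values of the deletion, 0.826 to 0.872, all lay above its 4 glucose values, 0.746 to 0.789. The change over both strains was 0.08 log2 units and did not pass (exact permutation p = 0.0157, adjusted p = 0.0686). It passed without wild-type glucose replicate 1 or without wild-type ethanol replicate 3 (adjusted p = 0.0343 each). With all samples in, only the 3 changes above passed among the 24 tests. Wild type alone, with 3 samples against 3, cannot give an exact p below 0.1.

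**Figure D3:**
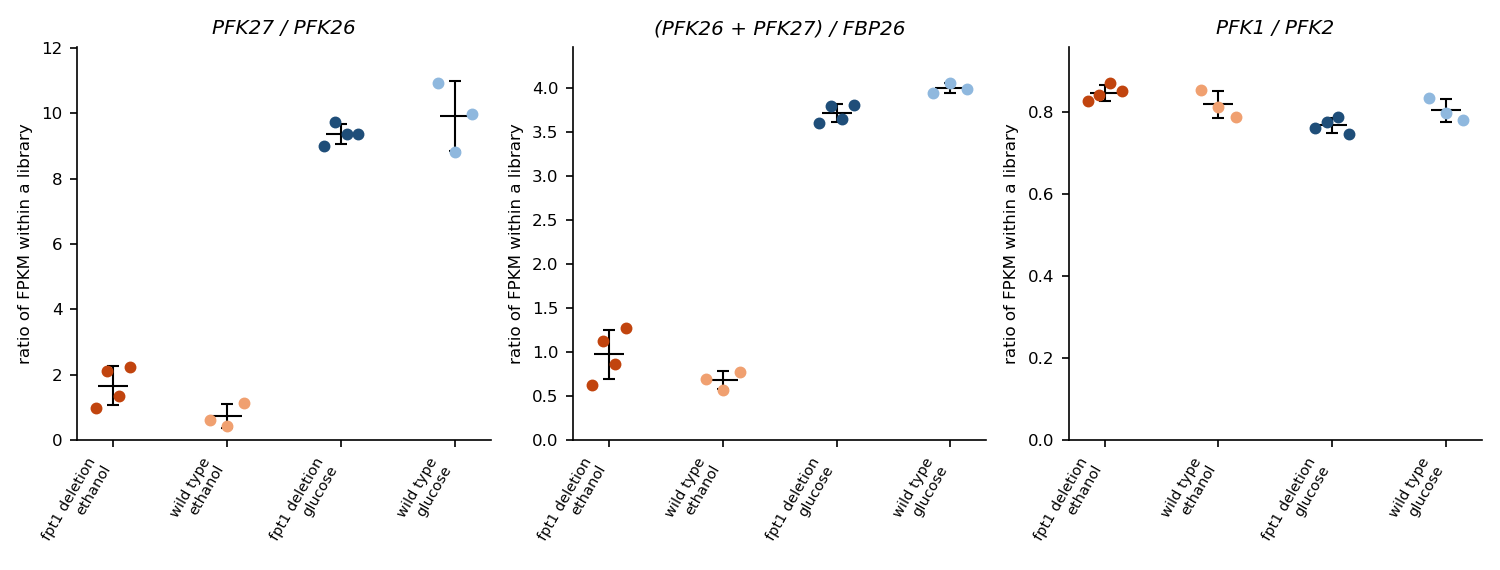
Ratios of FPKM values within each library (linear axis from 0) for PFK27 over PFK26, both 2-kinase genes over FBP26, and PFK1 over PFK2; points are libraries, bars group means and whiskers SDs. The first ratio lies between 0.453 and 2.24 in ethanol libraries and between 8.80 and 10.9 in glucose libraries, and the third spans 0.746 to 0.872 in all 14.

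In glucose, none of the 8 genes passed the test of deletion against wild type, and over all genes 2 of 6267 did (0.0319%). An unadjusted p under 0.05 was found for 2 of the 8 and for 723 of all genes. PFK26 averaged 20.3 ± 0.659 FPKM in deletion cells and 16.9 ± 1.16 FPKM in wild type, a log2 change of 0.25 ± 0.11 (adjusted p = 0.409 by limma). FBP26 averaged 56.6 ± 2.92 FPKM in deletion cells and 46.0 ± 2.07 FPKM in wild type, a change of 0.29 ± 0.13 (adjusted p = 0.431 by limma). PFK27 averaged 189.8 ± 8.33 FPKM in deletion cells and 167 ± 6.87 FPKM in wild type, a change of 0.18 ± 0.20 (adjusted p = 0.726).

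All deletion glucose libraries stood above all wild-type glucose libraries for PFK2, PFK26, PFK27 and FBP26. That is 4 of 8, where 15.6% of all tested genes do the same, and with libraries shifted to a common median only PFK27 and FBP26 remained, against 5.71% of genes. No member lay below wild type in all deletion libraries as deposited, against 2.12% of genes. With a common median FBA1 did, as 7.93% of genes did. For the 5 enzymes of upper glycolysis the log2 changes were -0.09 to 0.12, and the 95% intervals together spanned -0.31 to 0.24.

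In ethanol, too, no member passed when deletion was set against wild type, and over all genes 2 of 6267 did (0.0319%). An unadjusted p under 0.05 was found for PFK26, PFK27 and FBP26 and for 1510 of all genes. PFK26 averaged 54.4 ± 8.66 FPKM in deletion cells and 72.7 ± 6.66 FPKM in wild type, a log2 change of -0.42 ± 0.11 with a 95% interval of -0.65 to -0.19 (adjusted p = 0.107). PFK27 averaged 87.0 ± 19.4 FPKM in deletion cells and 52.2 ± 19.9 FPKM in wild type, a change of 0.76 ± 0.20 with an interval of 0.33 to 1.20 (adjusted p = 0.107). FBP26 averaged 153 ± 37.6 FPKM in deletion cells and 184 ± 11.4 FPKM in wild type, a change of -0.29 ± 0.13 (adjusted p = 0.202).

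The strains overlapped for all 3 of these genes in ethanol. PFK1 was the one member with every deletion library above every wild-type library, by 0.09 log2 units (adjusted p = 0.367), as 3.24% of all genes were. None lay below in all of them, against 4.12% of genes. The difference between the ethanol responses, deletion minus wild type, was -0.67 ± 0.15 for PFK26 (adjusted p = 0.126), -0.59 ± 0.19 for FBP26 (adjusted p = 0.138) and 0.58 ± 0.29 for PFK27 (adjusted p = 0.217). For the 5 enzymes it was between -0.08 and 0.12. No gene in the genome passed this test (0%), where an unadjusted p under 0.05 was found for 2 of the 8 and 1603 of all genes by limma. The 3 estimates reuse the same ethanol libraries as the comparison above and are not separate evidence.

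These ethanol values turn on single libraries. Without wild-type ethanol replicate 3, PFK26 was called lower in the deletion (-0.50, adjusted p = 0.016) and PFK27 higher (1.05, adjusted p = 0.00579), and 964 genes were called in all. Without deletion ethanol replicate 1, PFK26 was called lower (-0.51, adjusted p = 0.0098), PFK27 higher (0.90, adjusted p = 0.0153) and FBP26 lower (-0.44, adjusted p = 0.0111), and 912 genes were called. The difference of responses then gave 654 calls without wild-type ethanol replicate 3 and 844 without deletion ethanol replicate 1. Without deletion ethanol replicates 2 and 4 together, a choice made after the values were seen, the changes shrank to -0.24 for PFK26, 0.49 for PFK27 and -0.05 for FBP26.

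The ethanol libraries also differ along the axis that separates the media. The first principal component of all tested genes held 82.0% of the variance. Deletion ethanol replicates 4 and 2 lay nearest to glucose on it, at 31.8 and 35.3, then deletion 3 at 45.6, wild type 3 at 47.0, deletion 1 at 51.8, wild type 2 at 56.9 and wild type 1 at 58.1. The glucose libraries lay between -50.7 and -42.7. PFK26 was lowest in deletion 4 and 2 and highest in wild type 1 and 2, and PFK27 ran the opposite way. ADH2 was also lowest in deletion 2 and 4, at 271 and 287 FPKM, against 493 to 803 FPKM in the other 5 ethanol libraries. The component was computed from all genes, members included. The part of this position in the strain differences was not tested.

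**Figure D4:**
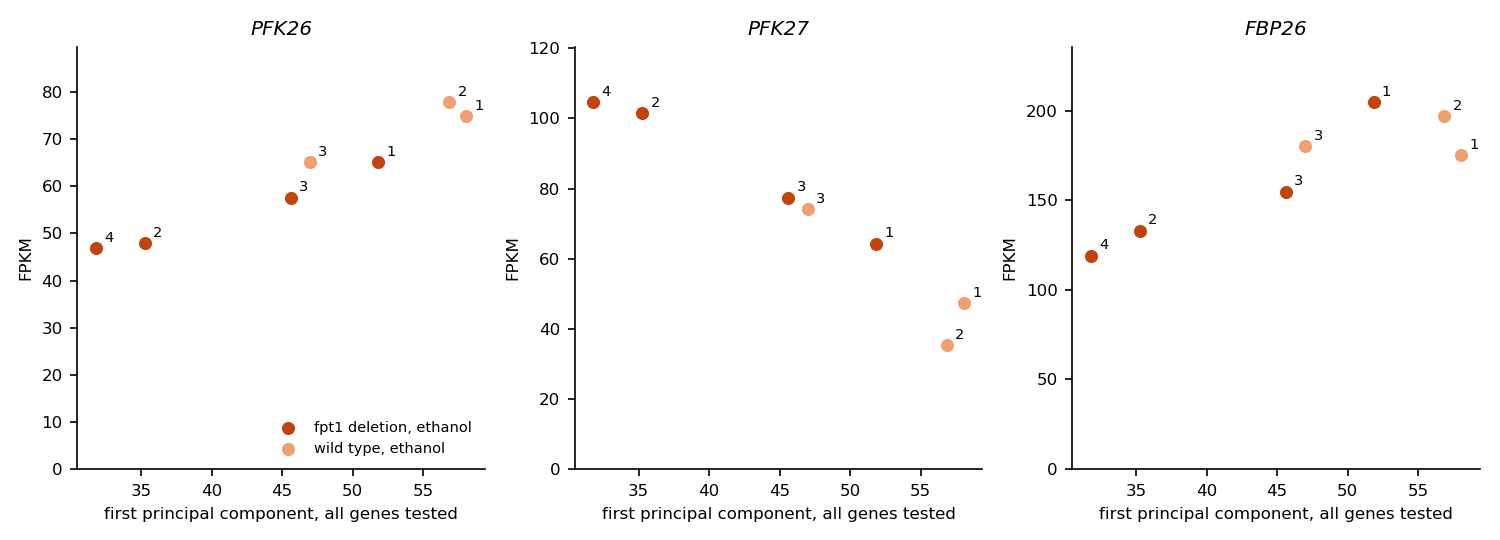
FPKM of PFK26, PFK27 and FBP26 (linear axis from 0) in the 7 ethanol libraries against the first principal component of all tested genes, on which higher values lie farther from the glucose libraries; numbers are replicates. Deletion replicates 4 and 2 are at the left of each panel, with 46.8 and 48.0 FPKM of PFK26 and 105 and 102 FPKM of PFK27.

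Other genes of the pathway set these changes in context. Of 9 genes of lower glycolysis, 4 rose and 3 fell in ethanol in each strain. The largest rise was in TDH1, a glyceraldehyde-3-phosphate dehydrogenase gene, by 4.02 log2 units in the deletion and 4.17 in wild type. The largest fall was in ENO2, the enolase gene known to be favoured in glucose, by 1.41 in the deletion and 1.64 in wild type, while its paralog ENO1 rose by 1.37 in the deletion and 1.90 in wild type. ENO1 and ENO2, and the TDH genes, are near-identical copies between which reads may be split uncertainly. PGK1 was among the 4 that rose, by 0.31 in the deletion and 0.29 in wild type, but with a common median its change was 0.10 in the deletion and -0.03 in wild type and it was not called.

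In the first step of glucose use HXK1, and in the reverse pathway FBP1 and PCK1, moved much more than any member. All 3 hexose kinase genes rose in both strains. The smallest rise was in HXK2, by 0.58 in the deletion and 0.56 in wild type, and the largest in HXK1, by 6.85 in the deletion and 7.56 in wild type. With a common median HXK2 was not called in wild type (0.24). FBP1 rose by 5.75 in the deletion and 6.47 in wild type. PCK1, which encodes phosphoenolpyruvate carboxykinase of gluconeogenesis, rose by 5.68 in the deletion and 5.85 in wild type.

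Regulators of the pathway moved less. Of 4 transcription factor genes, all 4 fell in the deletion and 2 fell in wild type (4 with a common median). TYE7 fell by 0.21 in the deletion and 0.33 in wild type, and RAP1 by 0.37 in the deletion and 0.40 in wild type. GCR1 fell by 0.22 in the deletion (adjusted p = 0.0288) and changed by -0.11 in wild type (adjusted p = 0.317). GCR2 fell by 0.19 in the deletion and changed by -0.13 in wild type (adjusted p = 0.0748). GRR1, part of a ubiquitin ligase involved in glucose signalling, fell by 0.41 in the deletion and 0.37 in wild type.

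Among kinase genes, TPK3, which encodes a catalytic subunit of protein kinase A, fell by 0.79 in the deletion and 0.89 in wild type. SNF1, the gene of the glucose-derepression kinase, rose by 0.18 in the deletion and 0.36 in wild type, but its call was lost under each of 3 other scalings, and in the deletion its sign turned with a common median (-0.03) and under quantile normalization (-0.05). In the glycerol branch, GPD1 rose by 0.55 in the deletion (not called under quantile normalization, 0.23) and 1.28 in wild type, and GPD2 fell by 0.31 in the deletion and 0.23 in wild type. None of these genes passed for deletion against wild type in either medium.

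The genes nearest to each member in pattern were found by the distance between centred log2(FPKM + 1) profiles over 14 libraries. For PFK26 they were GGA1 (0.247), DCS1 (0.294) and GRX2 (0.332), and for FBP26 GGA1 (0.372), PHR1 (0.384) and MRPL16 (0.398). For PFK27 they were MRT4 (0.450), NOP8 (0.540) and UPA1 (0.576). PFK1 lay nearest to SCH9, PUF4 and SDD3 (0.210 to 0.222) and PFK2 to TRK1, YGL176C and ZRT2 (0.208 to 0.228). FBA1 lay nearest to VMA1, ITR2 and YJR015W (0.244 to 0.256), PGI1 to VMA1, YGR117C and RPN2 (0.171 to 0.194) and TPI1 to RPE1, DPM1 and GPM1 (0.200 to 0.267). Ranking by Pearson correlation kept between 0 and 2 of the 3 neighbours of a member.

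The 5 upper glycolysis genes together held 0.978 ± 0.0718% of all FPKM in deletion cells in ethanol, 0.990 ± 0.0758% in wild type in ethanol, 1.19 ± 0.0942% in deletion cells in glucose and 1.24 ± 0.0363% in wild type in glucose. PFK26, PFK27 and FBP26 together held 0.0151 ± 0.00185% in deletion cells in ethanol, 0.0160 ± 0.000752% in wild type in ethanol, 0.0154 ± 0.00117% in deletion cells in glucose and 0.0132 ± 0.000702% in wild type in glucose.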

How the data were processed

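Per the labels' protocols, polyA RNA was purified on columns, DNase-treated, made into libraries with a stranded kit and read as 65-base single reads. The authors deposited FPKM values for all samples together. STAR 2.7.1a and the sacCer3 build appear in the submitters' processing notes. The tool that made FPKM, the annotation and the use of strand are not stated in the sources used here. Depth was estimated from the FPKM steps of 12 to 27 low genes in each library. Between 48.0% and 94.4% of these came within 0.15 of a whole read, so whole reads were not recovered, no count test was run, and no counting interval is given.

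The 6267 of 6664 genes that reached 1 FPKM in 3 or more samples were fitted as log2(FPKM + 1). The fit used limma 3.58.1 in R 4.3.3, with 4 group means over 14 samples, moderated variances with a trend, and two-sided tests. P-values were adjusted by Benjamini-Hochberg over the genes tested, at 0.05. The fit was tested on simulated data with independent noise and few changed genes. That setting lacks shifts shared by the genes of a library, so it cannot speak to them. A change on this scale understates that of low genes. Ratios were compared by exact permutation tests over all regroupings (numpy 2.4.6). Positions and sequences are from RefSeq R64, matched by systematic name for 5989 genes; the deposited table has no coordinates. The members and lists were chosen with earlier results of these data known. Named besides the members were fixed pathway genes and, per member, the 3 nearest patterns; a result of the kinase list is not reported here. Alternatives covered pseudocount, filter, scaling, trend, samples in the fit, replicate block and left-out samples.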

Additional observations from a re-analysis of the deposited data

How the results depend on the processing

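For the change between media, the calls of PFK1, PFK2, PFK26, PFK27 and FBP26 held under all 20 alternatives in the deletion and all 17 in wild type. Of 792 member values under alternatives, 745 stayed called or uncalled as before, with the direction kept or an uncalled sign change of at most 1 SE. Another 22 lost a call, 14 gained one, 9 changed sign by more than 1 SE without a call, and 2 turned round. Those 2 are FBA1 in wild type, 0.0012 under quantile normalization (adjusted p = 0.994), and TPI1 in wild type, -0.29 with a common median (adjusted p = 0.024). Besides these 2, 19 values differed in sign with no call under either setting. They include the 9 above, and the rest are counted within the 745. PGI1 was called lower in wild type with a common median (-0.41), under quantile normalization (-0.38) and rescaled to the same total per library (-0.23). Leaving out 1 library gave 0 to 3 members called for deletion over wild type in ethanol (without wild-type ethanol replicate 3, 2; without deletion ethanol replicate 1, 3) and 0 to 2 for the difference of responses (2 without either). Of all 6267 genes, those omissions gave 964 and 912 calls in ethanol, and 654 and 844 for the difference of responses. Over such omissions, the log2 ratio of PFK1 to PFK2 changed by 0.0889 to 0.147 in the difference of responses and by 0.0678 to 0.0967 between media, and that of the 2-kinases to FBP26 by 0.44 to 0.78 in the difference of responses. Calls gained there were PFK1 over PFK2 in the difference of responses without wild-type ethanol replicate 1 (adjusted p = 0.0343) and between media without wild-type glucose replicate 1 or ethanol replicate 3 (0.0343 each), and the 2-kinases over FBP26 in the difference of responses without deletion ethanol replicate 1 (0.00857). For FBP1 over PFK1 plus PFK2, the log2 change from glucose to ethanol in wild type was 7.19 at pseudocount 1, against 7.87 without a pseudocount. Same-numbered samples did not deviate together in every pair (correlations -0.423 to 0.171 across media within a strain, and -0.258 to 0.325 between strains in a medium, of which deletion and wild-type ethanol replicates 1 had 0.325, replicates 2 0.213 and replicates 3 -0.0907), so the numbers are not taken as pairing. With the replicate block, PFK26 for deletion over wild type in ethanol was -0.35 (adjusted p = 0.829). In that fit deletion ethanol replicate 4 had no wild-type partner and so did not bear on the estimate. Between media the block took the call of FBA1 in both strains (adjusted p = 0.0668 in the deletion and 0.0625 in wild type) and of PGI1 in the deletion (0.0931). The number of members called between media was then 5 in each strain. Over all 6267 genes, 4505 were called in the deletion and 4572 in wild type. The causes were not tested, and the roughly known depth limits precision.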
